A study of Homo sapiens with 18 samples.

Results

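The mitotic spindle, kinetochore and cytokinesis genes described here are 52 genes expressed mainly in G2 phase and mitosis. They were taken as the rows of the deposited count table whose Ensembl identifiers belong to a given list of G2/M gene symbols. All 52 were found among the 57448 genes of the table and all 52 were among the 15587 genes tested, which reached 1 CPM (counts per 1e6 reads) in 3 or more of the 18 libraries. The rule itself uses no measured value.

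A dividing cell makes the proteins of mitosis shortly before it needs them. Cyclin-dependent kinase 1 and its cyclins start mitosis, PLK1 and the Aurora kinases build the spindle and ready the chromosomes, kinetochores join chromosomes to microtubules, and a checkpoint holds back the anaphase-promoting complex until every chromosome is attached. Kinesins and contractile ring proteins then separate the daughter cells. Transcription of most of these genes rises together in G2. It is held down in resting cells by the DREAM complex and switched on by the MuvB core with MYBL2 and FOXM1, often through a cell cycle homology region (CHR) and through CCAAT boxes bound by NF-Y close to the start site. Because a population with more cells in G2 and mitosis holds more of these RNAs, a bulk RNA measurement cannot tell apart more or fewer cells of that kind from more or less RNA per cell.

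RNA from MDA-MB-231 cells, an established triple negative breast cancer line with mesenchymal traits, was sequenced in 6 groups of 3 libraries, with rRNA depleted. WT were unmodified, untreated cells. KO1 and KO2 were untreated cells in which GPS2, a regulator of ubiquitin signalling, had been targeted with Cas9 and a different set of guides each, and which were kept as selected pools rather than clones. The group myrAKT carried a retrovirus for myristoylated AKT1, a form held at the membrane and constantly active. KO1+MK and KO2+MK were the same knockout pools after 10 µM MK2206, an allosteric AKT inhibitor, for 4 h. WT cells with MK2206 are not among the labels, and the reference for the drug was untreated cells, so drug and vehicle cannot be told apart. Nor can the edited gene and the viral vector with its selection, since the labels describe WT as unmodified. Nothing in the labels says that replicates came from separate cultures, so p-values measure only the spread between these libraries, which may be technical.

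Gene totals ran from 23419198 to 39319910 reads over the libraries, and the 6 libraries with MK2206 had the 6 lowest. Every member had at least 838 counts in every library, and replicates of a group differed by more than counting error. GPS2 itself was read at 4.39, 4.88 and 4.4 CPM in WT, 4.52, 4.45 and 4.5 CPM in KO1 and 5.88, 6.07 and 6.12 CPM in KO2. A gene-level count cannot show small edits, and the exons of GPS2 overlap those of a neighbouring gene, so these counts check neither label. AKT1 was read at 135, 133.4 and 135.2 CPM in WT and 241.6, 231.2 and 217.7 CPM in myrAKT (1.7-fold, log2 fold change 0.77, SE 0.0443, adjusted p = 4.27e-09). All 6 markers of the mesenchymal line were present, with a summed level of 3827 to 5075 CPM over the 18 libraries, and of the luminal markers PGR and CDH1 were at or near 0 and ESR1 low in every library. The summed luminal markers, nearly all KRT19, were 254.8 to 272.6 CPM in WT, 118.1 to 167.2 CPM in untreated KO, 68.4 to 81.5 CPM in myrAKT and 78.5 to 123.9 CPM in treated KO. The 4 leukocyte markers summed to 2.25 CPM or less in every library. The part of the luminal markers in the results below was not tested.

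The stretches of 100 bases before the start site of 6 members are shown to show where the motifs by which G2/M genes are usually recognised stand or are missing, in genes that cover the main patterns below: CDC20 was higher in KO and lower with MK2206, KIF4A higher in KO and in myrAKT, MKI67 higher in KO but lower in myrAKT, CKS2 higher with MK2206, KIF20A higher in KO with CCAAT boxes alone, and TACC3 higher in KO with neither motif. Capitals mark CHR motifs (TTTGAA or TTCGAA, on either strand) and CCAAT boxes (CCAAT, on either strand, so also ATTGG). The sequences run 5′ to 3′ along the gene and come from RefSeq start sites on GRCh38.p14. CDC20 lies at chr1:43358881-43358980, plus strand. KIF4A lies at chrX:70290004-70290103, plus strand. MKI67 lies at chr10:128126424-128126523, minus strand. CKS2 lies at chr9:89311095-89311194, plus strand. KIF20A lies at chr5:138179012-138179111, plus strand. TACC3 lies at chr4:1720531-1720630, plus strand.
CDC20: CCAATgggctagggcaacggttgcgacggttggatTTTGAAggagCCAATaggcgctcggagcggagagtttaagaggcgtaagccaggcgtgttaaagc
KIF4A: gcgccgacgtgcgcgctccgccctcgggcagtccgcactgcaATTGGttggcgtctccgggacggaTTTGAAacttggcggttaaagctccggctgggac
MKI67: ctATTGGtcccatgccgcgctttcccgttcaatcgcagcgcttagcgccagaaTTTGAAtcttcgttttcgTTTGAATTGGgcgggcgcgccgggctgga
CKS2: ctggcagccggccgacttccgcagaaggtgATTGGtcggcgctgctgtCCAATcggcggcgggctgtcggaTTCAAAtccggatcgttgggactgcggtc
KIF20A: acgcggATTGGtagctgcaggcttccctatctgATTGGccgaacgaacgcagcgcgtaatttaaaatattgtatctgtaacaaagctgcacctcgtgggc
TACC3: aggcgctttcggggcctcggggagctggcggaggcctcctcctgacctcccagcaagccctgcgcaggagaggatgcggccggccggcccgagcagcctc

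Promoter windows from 250 bases before to 50 bases after the start site were on hand for 45 of the 52 members. AURKA, TTK, UBE2C, BIRC5, TPX2, CDCA2 and ANP32E had none. A CHR motif stood in the window of 35 of the 45 members (77.8%), against 19.5% of all 27305 genes with a window and 1 of 31 replication licensing and fork genes (3.23%), the S-phase counterpart of these genes. A CCAAT box stood in 34 of the 45 (75.6%), against 39.7% of all genes and 58.1% of the replication genes. Counted only within 100 bases before the start site, the shares were 53.3% of members against 6.48% of all genes for CHR and 68.9% against 21.9% for CCAAT. A forkhead motif (GTAAACA or ATAAACA, either strand) was found in 1 member (2.22%, against 8.98% of all genes). In all, 29 members held both CHR and CCAAT, AURKB, CCNA2, CCNB1, KIF20A and NEK2 held CCAAT alone, ANLN, BUB1B, G2E3, NDC80, NUF2 and SMC4 held CHR alone, and CENPE, CKAP2, KIF2C, LBR and TACC3 held neither. In the stretches above, the CHR of CDC20 begins 65 bases before the start site, that of KIF4A 34 bases, those of MKI67 47 and 29 bases and that of CKS2, which is on the opposite strand, 29 bases. The CHR of MKI67 nearer to the start site runs into a CCAAT box on the other strand. A match describes the letters of the window and does not show that a factor binds there.

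**Figure D1:**
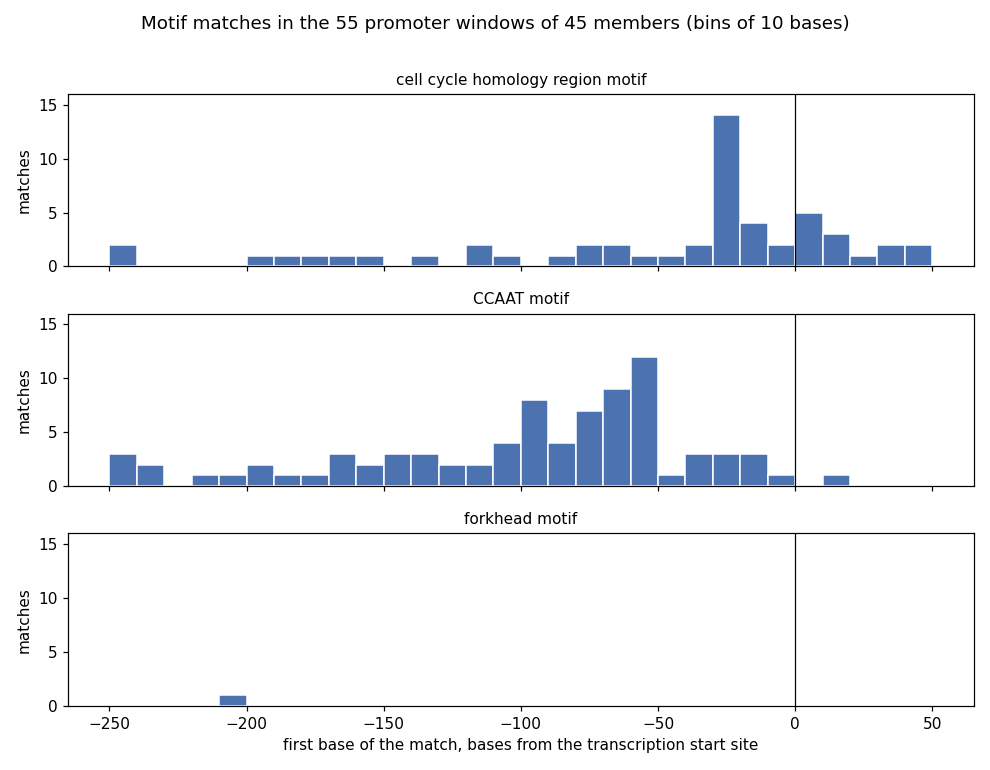
Position of CHR, CCAAT and forkhead motif matches (first base, in bases from the transcription start site) in the 55 promoter windows of the 45 members that have one, in bins of 10 bases. CHR matches are most frequent from 30 to 20 bases before the start site, CCAAT boxes are most frequent in the last 100 bases before it, and the forkhead motif is found in 1 member.

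In WT cells the members differed widely in level. Per kilobase of annotated exon, TPX2 (171.6 CPM per kb), TUBB4B (170.5), CKS2 (164), TOP2A (138.3) and UBE2C (124) were the highest and G2E3 (5.01 CPM per kb) and HMMR (8.52) the lowest. Together the 52 members took 1.03% to 1.06% of the normalized counts in WT, 1.22% to 1.25% in KO1, 1.31% to 1.32% in KO2, 1.13% to 1.21% in myrAKT, 1.15% to 1.18% in KO1+MK and 1.19% to 1.23% in KO2+MK. The mean of their log2 CPM was 7.14 ± 0.0144 (SD, n = 3) in WT, 7.37 ± 0.0185 in KO1, 7.46 ± 0.0187 in KO2, 7.33 ± 0.0671 in myrAKT, 7.29 ± 0.0363 in KO1+MK and 7.34 ± 0.0287 in KO2+MK. Every library of the other groups lay above the 3 WT libraries, and the treated libraries of each knockout pool lay below all untreated libraries of the same pool. Over the deviations of the 18 libraries from their group means, pairs of members had a median Pearson r of 0.474. The libraries share their normalization, and this is a description.

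**Figure D2:**
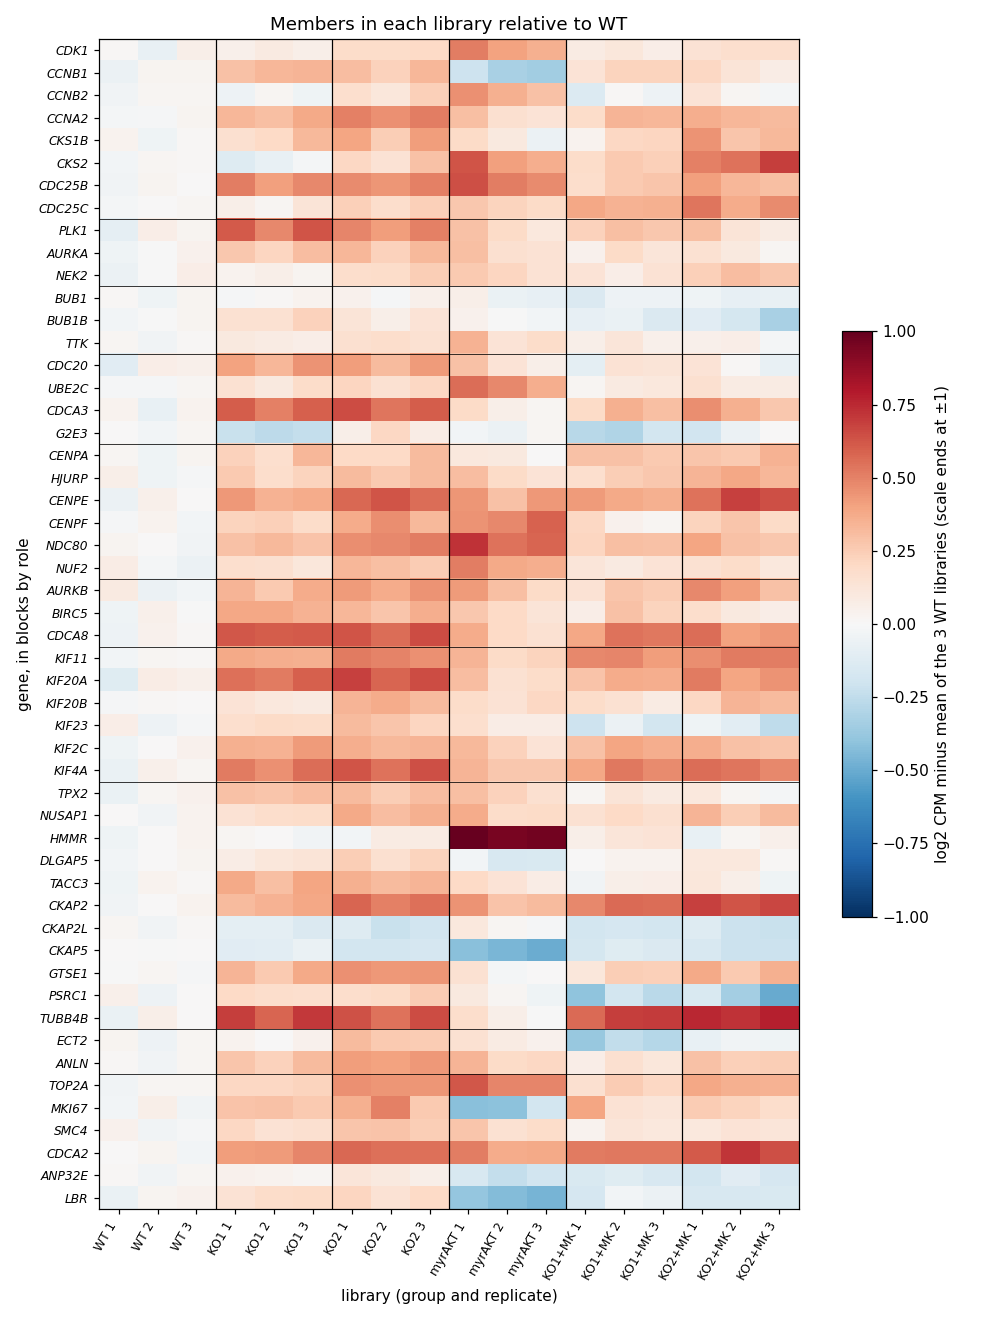
Level of each of the 52 members (rows, in blocks by role) in each of the 18 libraries (columns) as log2 CPM minus the mean of the 3 WT libraries, with red above and blue below WT and a scale that ends at ±1. TUBB4B, CDCA8 and KIF20A are red across all 6 untreated KO libraries, HMMR is deep red in the 3 myrAKT libraries alone, and PSRC1 turns blue in the 6 libraries with MK2206.

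The first comparison set the libraries labelled as GPS2 knockouts beside WT. With both knockout pools taken as 1 group (6 libraries against 3), 25 of the 52 members (48.1%) were higher in KO than in WT and 0 lower, at an adjusted p of at most 0.001, the threshold used throughout for a call. Over all genes tested, 15.5% were higher and 16.6% lower. At an unadjusted p below 0.05 edgeR gave 2 members lower (3.85%, all genes 32.5%). The median log2 fold change was 0.27 for the members and 0.00 for all genes, and 49 of the 52 values were above 0. The changes were small: 2 of the 25, TUBB4B and CDCA8, reached 1.5-fold. At an adjusted p of 0.05 and 1.5-fold these 2 members were called, beside 897 higher and 1841 lower of all 15587 genes. The call was kept without each library in turn for 19 of the 25, and was lost in at least 1 of these fits for HJURP, CENPE, NDC80, CKAP2, ANLN and MKI67. DESeq2 called 35 higher and 2 lower, and edgeR with all 18 libraries in 1 fit called 40. Calls over all genes rose as well, from 2420 higher and 2586 lower of 15587 in the main fit. They were 3222 and 3236 of 15586 with DESeq2, and 3785 and 3758 of 15587 with all libraries in 1 fit. In the pooled fit a difference between KO1 and KO2 counts as spread among the 6 libraries.

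The single member with the largest change was a tubulin. TUBB4B, a β-tubulin of spindle microtubules, was read at 332.1, 361.7 and 348.4 CPM in WT, 559.8, 519.7 and 567.3 CPM in KO1 and 539.9, 505.6 and 544.4 CPM in KO2. The groups did not overlap, and the level was 1.53-fold higher in KO (log2 fold change 0.62, SE 0.0448, adjusted p = 7.33e-07). Of the 11 spindle microtubule genes, TPX2, TACC3, CKAP2, GTSE1 and TUBB4B were called higher and none lower, with a median log2 fold change of 0.24. TPX2, which activates AURKA on the spindle, gave 591.1, 627.6 and 637.5 CPM in WT, 759.2, 747.6 and 765.8 CPM in KO1 and 771.9, 735.4 and 766.5 CPM in KO2 (1.21-fold, adjusted p = 4.05e-05). TACC3, which with CKAP5 stabilises kinetochore fibres, rose from 141.1, 149.5 and 146.7 CPM to 189.9, 179.9 and 191.2 CPM in KO1 and 186.2, 181.6 and 184.2 CPM in KO2 (1.26-fold, adjusted p = 7.62e-06). NUSAP1, HMMR, DLGAP5, CKAP2L, CKAP5 and PSRC1 did not pass, and CKAP2L and CKAP5 had values below 0 (log2 fold change -0.17 and -0.15).

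The chromosomal passenger complex corrects wrong attachments and later moves to the midzone, and all 3 of its genes in the list were higher in KO. CDCA8 (borealin) was read at 76.2, 81.2 and 79.3 CPM in WT against 121.1, 120.2 and 121 CPM in KO1 and 122.3, 116.3 and 124.3 CPM in KO2 (1.51-fold, log2 fold change 0.60, SE 0.0343, adjusted p = 2.05e-07). AURKB, its kinase, stood at 98.9, 89.5 and 91.3 CPM in WT, 118.1, 111.7 and 120.2 CPM in KO1 and 125, 120.2 and 127.1 CPM in KO2 (1.27-fold, adjusted p = 6.48e-05). BIRC5 (survivin) went from 158.2, 168.8 and 162.9 CPM to 214, 213.8 and 207.2 CPM in KO1 and 205.3, 197.7 and 210.3 CPM in KO2 (1.26-fold, adjusted p = 1.28e-05). For each of the 3, all 6 KO libraries lay above all 3 WT libraries.

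Among the mitotic kinesins, KIF11, KIF20A, KIF2C and KIF4A were higher and KIF20B and KIF23 were not called, with a median log2 fold change of 0.38 over the 6. KIF20A, which carries the passenger complex to the midzone, was read at 125.3, 144 and 141 CPM in WT, 199.5, 195.5 and 206.4 CPM in KO1 and 218.7, 204.8 and 214.9 CPM in KO2 (1.49-fold, log2 fold change 0.58, SE 0.0512, adjusted p = 2.83e-06). KIF4A, a motor that binds chromosome arms, gave 60.9, 66.1 and 64.9 CPM, 91.7, 87.7 and 93.9 CPM and 98.9, 93.3 and 99.8 CPM in the same order (1.45-fold, adjusted p = 2.61e-06). For both, all KO libraries lay above all WT libraries, and KO1 against KO2 was not called (95% interval of the log2 difference -0.16 to -0.04 for KIF20A and -0.17 to -0.04 for KIF4A). KIF23, the centralspindlin motor of cytokinesis, was at 125.5, 115.7 and 118.9 CPM in WT, 135.1, 136.7 and 136.1 CPM in KO1 and 149.7, 145.8 and 139.3 CPM in KO2, and narrowly missed the threshold (log2 fold change 0.21, adjusted p = 0.00143).

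Of the 3 mitotic kinases, PLK1 and AURKA were higher. PLK1, which acts from mitotic entry to cytokinesis, was read at 119.6, 133.4 and 130.4 CPM in WT, 195, 178 and 196.9 CPM in KO1 and 178.8, 171 and 180.6 CPM in KO2 (1.42-fold, log2 fold change 0.50, SE 0.053, adjusted p = 1.01e-05). AURKA, the kinase of centrosomes and spindle poles, was at 217.5, 223.2 and 230.5 CPM in WT, 269.6, 260.3 and 277.2 CPM in KO1 and 281.9, 262.8 and 280.1 CPM in KO2 (1.2-fold, adjusted p = 8.72e-05). NEK2, which splits the centrosomes, was at 46.2, 47.7 and 50.1 CPM in WT, 49.1, 50.1 and 49 CPM in KO1 and 54.2, 54.4 and 57 CPM in KO2 and was not called (adjusted p = 0.13). The 3 checkpoint genes BUB1, BUB1B and TTK were not called either, with log2 fold changes between 0.00 and 0.12. BUB1B, a part of the mitotic checkpoint complex, had 96.2, 97.5 and 99.9 CPM in WT, 108.6, 108.9 and 114.6 CPM in KO1 and 107, 101.6 and 107.7 CPM in KO2, so the groups did not overlap, yet the difference missed the threshold (adjusted p = 0.0158). TTK, the kinase upstream of the checkpoint, had 70.9, 68.5 and 70.6 CPM, 74.7, 74 and 73.1 CPM and 78.2, 79.1 and 77.6 CPM in these groups (adjusted p = 0.0318).

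In the cyclin-CDK list CCNB1, CCNA2 and CDC25B were higher and the other 5 genes were not called. CDK1, the kinase itself, was read at 140.5, 132 and 145.2 CPM in WT, 144.3, 148.2 and 144.7 CPM in KO1 and 157.8, 158 and 160 CPM in KO2, and KO1 overlapped WT (1.08-fold, adjusted p = 0.0624). CCNB1, its main mitotic cyclin, was at 279.2, 296.7 and 295.9 CPM in WT, 356.3, 365.9 and 367.5 CPM in KO1 and 359.9, 341.6 and 365.6 CPM in KO2 (1.22-fold, log2 fold change 0.29, SE 0.0357, adjusted p = 3.37e-05). CDC25B, a phosphatase that activates CDK1, was at 136.5, 142.8 and 140.2 CPM in WT, 198.9, 185.8 and 195.4 CPM in KO1 and 193.8, 189.8 and 198.7 CPM in KO2 (1.37-fold, adjusted p = 8.21e-07). CCNA2, the cyclin of S phase and early mitosis, was 1.32-fold higher (adjusted p = 4.03e-05).

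Among the ubiquitin genes of the list, CDC20 and CDCA3 were higher. CDC20, the activator of the anaphase-promoting complex, was read at 140.1, 158.6 and 156.8 CPM in WT, 200.7, 191.1 and 207.3 CPM in KO1 and 202.5, 189.1 and 204.1 CPM in KO2 (1.29-fold, log2 fold change 0.37, SE 0.0468, adjusted p = 3.73e-05). CDCA3, an adaptor of ubiquitin ligases, was at 43.5, 40.3 and 43.3 CPM in WT, 64.3, 60 and 64.3 CPM in KO1 and 66.6, 61.3 and 64.5 CPM in KO2 (1.48-fold, adjusted p = 1.28e-06). UBE2C, the conjugating enzyme of that complex, was at 158.3, 158.3 and 161.8 CPM in WT, 176.9, 170.9 and 181.3 CPM in KO1 and 184.7, 177.2 and 183.6 CPM in KO2, which missed the threshold (adjusted p = 0.00224). G2E3, a ubiquitin ligase, differed between the pools and is described with them below.

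Of the 6 centromere and kinetochore genes, HJURP, CENPE and NDC80 were higher. CENPE, the kinetochore motor that aligns chromosomes, was at 134.5, 145.5 and 140.9 CPM in WT, 189.3, 178 and 181.5 CPM in KO1 and 208.8, 216.6 and 206.7 CPM in KO2 (1.38-fold, adjusted p = 7.19e-05, and 0.00113 without WT replicate 1). NDC80, which grips microtubules, was at 95.9, 94.4 and 92 CPM in WT, 115.2, 117.6 and 114.9 CPM in KO1 and 130.1, 131.1 and 134.2 CPM in KO2 (1.3-fold, adjusted p = 0.000147, and 0.00116, 0.00113 and 0.00148 without WT replicates 1, 2 and 3). CENPF, a large kinetochore protein, was at 476.5, 491.6 and 470.8 CPM in WT, 559.4, 565.2 and 544.3 CPM in KO1 and 620, 662.6 and 599 CPM in KO2 and just missed the threshold in the pooled fit (adjusted p = 0.00137).

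Of the cytokinesis genes ANLN was higher and ECT2 not called, and of the 6 chromosome and envelope genes MKI67 and CDCA2 were higher. ANLN, which shapes the contractile ring, was at 376.8, 366.1 and 380 CPM in WT, 453.1, 438.2 and 466 CPM in KO1 and 500.7, 493.8 and 504.8 CPM in KO2 (1.26-fold, adjusted p = 0.000133, and 0.00116 and 0.0013 without WT replicates 1 and 2). MKI67, the Ki-67 coat of mitotic chromosomes and a common proliferation marker, was read at 1173, 1244 and 1167 CPM in WT, 1457, 1460 and 1436 CPM in KO1 and 1528, 1690 and 1429 CPM in KO2 (1.24-fold, log2 fold change 0.31, SE 0.0551, adjusted p = 0.000501). Its groups did not overlap, but the call was lost without WT replicate 1, 2 or 3 or KO2 replicate 1 (adjusted p = 0.00483, 0.00169, 0.00453 and 0.00125), with upper-quartile scaling and with library totals. CDCA2, which brings a phosphatase to anaphase chromosomes, was at 63.2, 64.2 and 61.9 CPM in WT, 84.2, 84.7 and 88.8 CPM in KO1 and 93.8, 92.7 and 92.6 CPM in KO2 (1.4-fold, adjusted p = 3.53e-06). TOP2A, which untangles sister chromatids, was at 859.9, 892.3 and 892 CPM in WT, 1018, 1017 and 1028 CPM in KO1 and 1208, 1195 and 1196 CPM in KO2, with no overlap but an adjusted p of 0.00182. SMC4, ANP32E and LBR were not called.

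**Figure D3:**
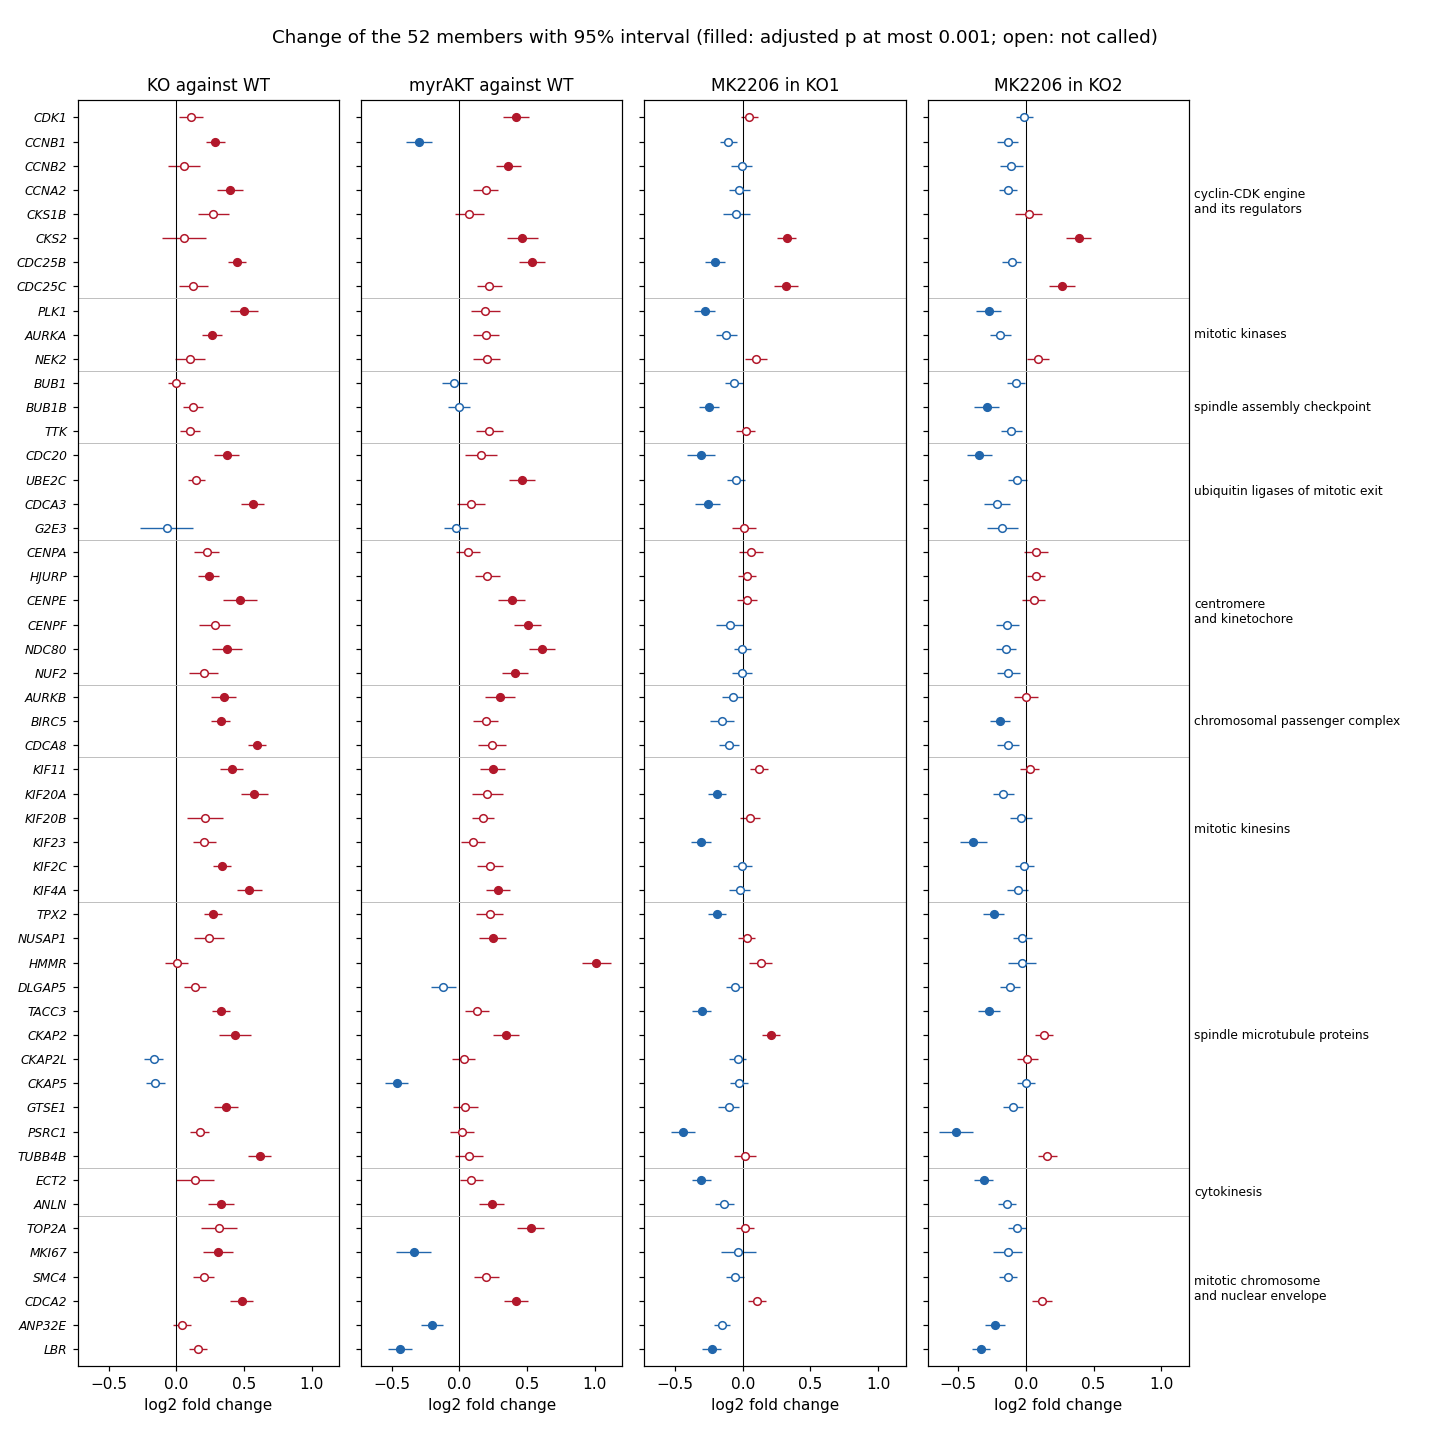
Log2 fold change of each of the 52 members with its 95% interval, in blocks by role, for KO against WT, myrAKT against WT and MK2206 in KO1 and in KO2 (filled points: adjusted p at most 0.001, open points: not called, red above and blue below 0). In KO 25 members are called higher and 0 lower, in myrAKT 18 higher and 5 lower, and with MK2206 3 higher and 12 lower in KO1 and 2 higher and 11 lower in KO2.

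Each knockout pool was also set against WT on its own. In KO1, 34 members were higher (65.4%, all genes 20.5%) and 1 lower (all genes 21.3%). In KO2, 41 were higher (78.8%, all genes 20.8%) and 2 lower (all genes 22.2%). Both comparisons use the same 3 WT libraries. In all, 32 members were called higher in both, an overlap that was not counted over all genes. Among them were CKS1B, CENPA, CENPF, KIF23, NUSAP1, TOP2A and SMC4, which the pooled fit did not call. TOP2A and CENPF kept their call in both pools without each library in turn. TUBB4B was 1.56-fold higher in KO1 and 1.52-fold in KO2, and CDCA8 1.51-fold and 1.53-fold. The member that was lower in KO1 was G2E3, and those lower in KO2 were CKAP5 (log2 fold change -0.18), a microtubule polymerase, and CKAP2L (-0.19). The CKAP5 call was lost without WT replicate 2 or 3 or KO2 replicate 1 (adjusted p = 0.00113, 0.00178 and 0.0013). That of CKAP2L was lost without WT replicate 3 or KO2 replicate 2 or 3 (0.00256, 0.00136 and 0.00119) and without the low-count filter (0.00135). In all, 8 of the 35 calls in KO1 and 10 of the 43 in KO2 were lost without at least 1 library.

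The pools were then compared directly. Of the 52 members, 12 were lower in KO1 than in KO2 (23.1%, all genes 5.54%) and 0 were higher (all genes 7.06%). At an unadjusted p below 0.05, edgeR gave 2 members higher in KO1 (3.85%, all genes 22.4%) and 31 lower (59.6%, all genes 21.2%). DESeq2 also called 0 higher, with 15 lower, beside 1169 higher and 1002 lower of all 15587 genes. The largest difference was in G2E3, which was read at 39.9, 38.9 and 39.6 CPM in KO1, 48.6, 53.8 and 49.1 CPM in KO2 and 46.9, 45.8 and 47.3 CPM in WT (0.775-fold, log2 fold change -0.37, SE 0.046, adjusted p = 1e-05). KO1 lay below WT and KO2 above it. ECT2, the RhoA exchange factor that starts the cleavage furrow, was at 368.2, 360.9 and 371.3 CPM in KO1 and 448.3, 431.3 and 429.3 CPM in KO2, with WT at 367.2, 347.1 and 365.4 CPM (0.834-fold, adjusted p = 4.12e-06). KO1 overlapped WT and KO2 did not. TOP2A, with the values above, was 0.844-fold in KO1 against KO2 (adjusted p = 9.62e-06). The other 9 were CCNB2, CCNA2, CKS2, CENPE, NDC80, KIF20B, NUSAP1, CKAP2 and ANLN. Without KO1 replicate 1 the count fell to 6, and 6 members kept the call without each library in turn (CKS2, G2E3, CENPE, KIF20B, ECT2 and TOP2A). With all 18 libraries in 1 fit 5 were called, beside 926 higher and 559 lower of all 15587 genes. That fit did not call CENPE, CCNB2, CCNA2, NDC80, NUSAP1, CKAP2 and ANLN. Without the low-count filter CCNA2 and ANLN lost their calls. PLK1, CDC20, CDCA8 and TUBB4B did not differ by call between the pools, with 95% intervals of the log2 difference of 0.02 to 0.16, -0.07 to 0.07, -0.07 to 0.05 and -0.03 to 0.11.

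The myrAKT line asked what constant AKT activity does to the same genes. Here 18 members were higher than in WT (34.6%, all genes 12.7%) and 5 lower (9.62%, all genes 17.3%), with a median log2 fold change of 0.20 against 0.02 for all genes. With upper-quartile scaling 30 were higher and 3 lower, and with all 18 libraries in 1 fit 35 were called. Over all 15587 genes, the main fit called 1980 higher and 2697 lower. Upper-quartile scaling called 2358 and 2312, and the fit of all libraries 2549 and 3055. The call was kept without each library in turn for 16 of the 23. By role, 4 of the 6 kinetochore genes were higher, 4 of the 8 cyclin-CDK genes with 1 lower, 3 of the 11 spindle genes with 1 lower, 2 of the 6 kinesins, 1 of the 4 ubiquitin genes, 1 of the 3 passenger genes, 1 of the 2 cytokinesis genes, and 2 of the 6 chromosome and envelope genes with 3 lower. None of the 3 genes of the mitotic kinase list (PLK1, AURKA and NEK2) and none of the 3 checkpoint genes was called. HMMR, a spindle pole protein that is also a hyaluronan receptor, was read at 32.6, 33.6 and 34.3 CPM in WT, 34, 33.6 and 32.6 CPM in KO1, 32.8, 35.4 and 35.5 CPM in KO2 and 73.3, 64.9 and 65.4 CPM in myrAKT (2.02-fold against WT, log2 fold change 1.01, SE 0.0536, adjusted p = 1.82e-09). The myrAKT libraries stood apart from all others, and in KO against WT it was not called (95% interval of the log2 fold change -0.08 to 0.09). NDC80 was at 155.3, 136.9 and 140.7 CPM in myrAKT (1.53-fold, adjusted p = 1.01e-07), above every WT library, and HMMR and NDC80 were the 2 members past 1.5-fold. CENPE was at 190.5, 171.8 and 189.9 CPM (1.31-fold, adjusted p = 1.99e-05). CENPF was at 656, 669.7 and 722.1 CPM (1.42-fold, adjusted p = 1.34e-06). NUF2, the partner of NDC80, was 1.33-fold higher (adjusted p = 7.97e-06).

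Of the cyclin-CDK genes, CDK1, CCNB2, CKS2 and CDC25B were higher in myrAKT and CCNB1 lower. CDK1 was at 198.4, 183.6 and 178.4 CPM, above every WT library (1.34-fold, adjusted p = 6.74e-06). CDC25B was at 219, 199.3 and 193.8 CPM (1.45-fold, adjusted p = 3.86e-07). CKS2, a small CDK adaptor, was at 156.6, 134 and 129.8 CPM against 99.1, 102.1 and 101.7 CPM in WT (1.38-fold, adjusted p = 1.1e-05). CCNB2 was 1.29-fold higher (adjusted p = 1.32e-05). The libraries of CDC25B and CKS2 did not overlap with WT. CCNB1 was at 251.9, 231.7 and 228.8 CPM, below all 3 WT libraries (log2 fold change -0.30, adjusted p = 0.000123). Its call was lost without WT replicate 2 or 3 or myrAKT replicate 2 (adjusted p = 0.00119, 0.00157 and 0.00114). UBE2C was at 235.4, 222.3 and 205.6 CPM (1.38-fold, adjusted p = 1.67e-06).

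TOP2A and MKI67 went opposite ways in myrAKT. TOP2A was at 1356, 1233 and 1238 CPM (1.44-fold, adjusted p = 8.25e-07), whereas MKI67 was at 895.4, 899.3 and 1054 CPM, below every WT library (log2 fold change -0.34, adjusted p = 0.000624). The MKI67 call was lost without WT replicate 2 or 3 or myrAKT replicate 1 or 2 (adjusted p = 0.00479, 0.00271, 0.00222 and 0.00458), with upper-quartile scaling (0.00314) and with library totals (0.00194). LBR, which ties the nuclear envelope to the lamina and chromatin, was at 160.9, 171.5 and 173.4 CPM in WT and 128.8, 124.6 and 122 CPM in myrAKT (log2 fold change -0.44, adjusted p = 1.49e-06). CKAP5 (log2 fold change -0.46, adjusted p = 5.3e-07) and ANP32E, a histone H2A.Z chaperone (-0.21, adjusted p = 0.000835), were lower as well. ANP32E lost its call without any of the 3 WT libraries (adjusted p = 0.00239, 0.00272 and 0.00865), without myrAKT replicate 2 or 3 (0.00523 and 0.001), and with upper-quartile scaling, library totals or no low-count filter.

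Members of several other roles were also called higher in myrAKT. KIF4A was at 80.9, 77 and 76.9 CPM, above every WT library (1.22-fold, adjusted p = 0.000116). CDCA2 was at 90, 81.5 and 82.3 CPM (1.33-fold, adjusted p = 2.83e-06). AURKB was at 125.1, 114.9 and 106.1 CPM (1.23-fold, adjusted p = 0.000366), and its call was lost without WT replicate 2 or 3 or myrAKT replicate 1 or 2 (adjusted p = 0.00284, 0.00327, 0.00276 and 0.00348). ANLN was at 472.4, 426.7 and 431 CPM (1.18-fold, adjusted p = 0.000781), and its call was lost without any library other than myrAKT replicate 3 (adjusted p up to 0.00704). For all 4 genes the myrAKT libraries lay above the WT libraries. KIF11, NUSAP1 and CKAP2 were called as well, KIF11 and NUSAP1 not without any library other than myrAKT replicate 3. Without the low-count filter KIF4A (adjusted p = 0.00269), ANLN (0.0181), KIF11 (0.0124) and NUSAP1 (0.0126) were not called.

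Among the members not called in myrAKT were several that KO raised. TUBB4B was at 391.2, 362.5 and 345.8 CPM in myrAKT, overlapping WT (95% interval of the log2 fold change -0.03 to 0.17, adjusted p = 0.274). CDCA3 was at 48.5, 44.1 and 43 CPM and also overlapped WT (adjusted p = 0.193). PLK1 was at 156.6, 145.6 and 137.3 CPM, above WT and below all KO libraries (adjusted p = 0.00882). AURKA was at 275.1, 250.1 and 247.3 CPM, above WT and overlapping KO (adjusted p = 0.00356). CDC20 was at 186.2, 166.9 and 158.3 CPM (adjusted p = 0.0402). CDCA8 was at 102.1, 90.8 and 87.7 CPM and KIF20A at 169, 151.4 and 155.5 CPM, in both cases above WT and below KO (adjusted p = 0.00171 and 0.0077). Of the 2 role lists without a call, NEK2 had the smallest p among the kinases and was at 57.7, 55.7 and 52.9 CPM (adjusted p = 0.00333), and TTK had the smallest among the checkpoint genes and was at 89.2, 76.9 and 79.4 CPM (adjusted p = 0.00242).

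Since KO and myrAKT share their WT libraries, they were compared with each other directly (6 libraries against 3). Of the members, 14 were higher in KO (26.9%, all genes 19.1%) and 4 lower (7.69%, all genes 16.7%). With upper-quartile scaling 10 were higher and 5 lower, beside 2482 and 3058 of all 15587 genes. Without myrAKT replicate 2 the total of members called fell to 10. MKI67 (1.56-fold, log2 fold change 0.64, SE 0.0724, adjusted p = 1.28e-05), LBR (1.51-fold, adjusted p = 6.5e-08), CCNB1 (1.5-fold, adjusted p = 2.88e-07) and TUBB4B (1.46-fold, adjusted p = 2.09e-06) led the genes higher in KO, followed by CDCA3, KIF20A and CDCA8. Further down, the calls of PLK1, GTSE1, ANP32E, KIF4A, TACC3 and DLGAP5 were each lost without at least 1 library in turn, as was that of CKAP2L on the lower side. Without the low-count filter TACC3, CDK1, UBE2C and CKAP2L were not called (adjusted p = 0.00156, 0.00145, 0.00103 and 0.101). All 6 KO libraries lay above all 3 myrAKT libraries for each of the first 4. HMMR led the other side (0.496-fold in KO against myrAKT, adjusted p = 2.77e-08), with UBE2C (0.802-fold, adjusted p = 6.18e-05), CDK1 (0.806-fold, adjusted p = 0.000199) and CKAP2L (adjusted p = 0.000683). The CDK1 call was lost without myrAKT replicate 1 or 2 (adjusted p = 0.00157 and 0.00113). PLK1 was 1.24-fold higher in KO (adjusted p = 0.000313, and 0.00302 and 0.00262 without myrAKT replicates 2 and 3). CDC20 was not called (adjusted p = 0.00329).

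**Figure D4:**
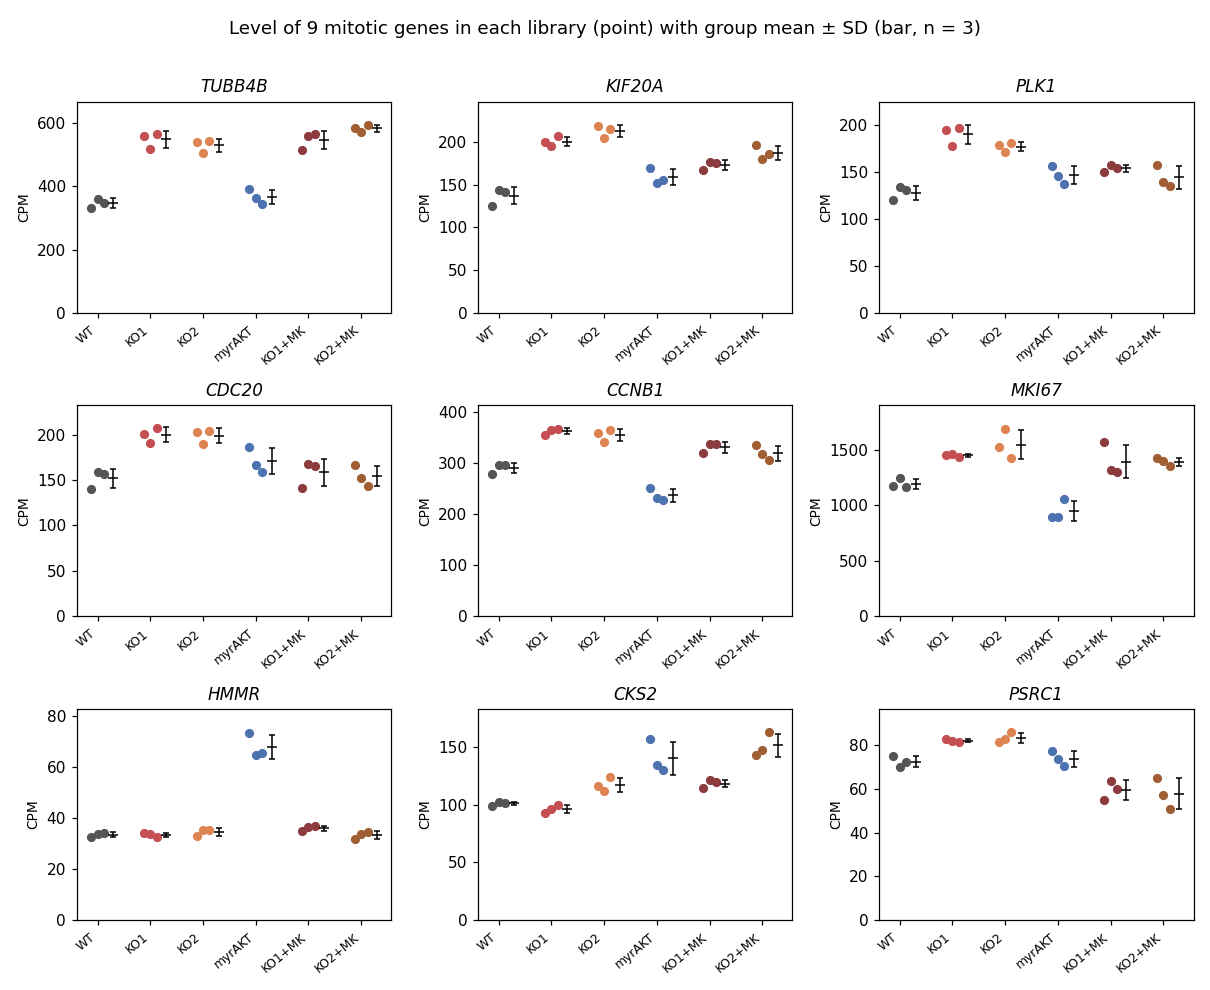
Level in CPM (axes from 0) of 9 members in each library of the 6 groups, with the mean ± SD of the 3 libraries beside the points. TUBB4B stays high with MK2206, PLK1 and CDC20 fall towards WT, CCNB1 and MKI67 are lowest in myrAKT, HMMR is high in myrAKT alone, CKS2 rises and PSRC1 falls below WT with MK2206.

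The drug comparison asked which of these genes follow AKT activity in knockout cells within 4 h. The treated libraries held fewer counted reads than the untreated ones, and the part of depth in these results was not tested. The 6 mesenchymal markers of the line also moved with the drug, from a summed 4660 to 4742 CPM in KO1 to 3827 to 4204 CPM in KO1+MK and from 4971 to 5075 CPM in KO2 to 4241 to 4549 CPM in KO2+MK. Of these markers 3 were called lower in KO1 and 2 in KO2 and 0 higher, with a median log2 fold change of -0.19 and -0.15. The summed luminal markers went from 154.1 to 167.2 CPM to 111.5 to 123.9 CPM in KO1 and from 118.1 to 134.5 CPM to 78.5 to 88.9 CPM in KO2. The part of these markers in the results was not tested. In KO1, 12 members were lower with MK2206 (23.1%, all genes 8.26%) and 3 higher (5.77%, all genes 10.9%). In KO2, 11 were lower (21.2%, all genes 8.78%) and 2 higher (3.85%, all genes 13.1%). At an adjusted p of 0.05 and 1.5-fold, 901 of 15587 genes were higher and 458 lower in KO1, and 1048 and 613 in KO2. None of the members reached 1.5-fold in either pool. The median log2 fold change was -0.04 in KO1 and -0.11 in KO2, against 0.01 and -0.01 for all genes, and over the alternatives it ranged from -0.08 (no low-count filter) to -0.01 (library totals) in KO1 and from -0.15 to -0.09 in KO2. PLK1, BUB1B, CDC20, KIF23, TPX2, TACC3, PSRC1, ECT2 and LBR were lower in both pools, and CKS2 and CDC25C higher in both. These 9 lower genes are 75% of the members lower in KO1 and 81.8% of those lower in KO2. The same overlap was not counted over all genes tested. No library is shared between these 2 comparisons. Over the 52 members the log2 fold changes of the pools had a Pearson r of 0.91, and over all genes 0.822, given as a description across genes, which are not independent.

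By role, with KO1 first, 3 and 3 of the 11 spindle genes were lower, 2 and 1 of the 6 kinesins, 2 and 1 of the 4 ubiquitin genes, 1 and 1 of the 3 kinases, 1 and 1 of the 3 checkpoint genes, 1 and 1 of the 2 cytokinesis genes, 1 and 2 of the 6 chromosome and envelope genes, 0 and 1 of the 3 passenger genes, 1 and 0 of the 8 cyclin-CDK genes, and none of the 6 kinetochore genes. In KO1, the 15 calls fell to 5 without KO1 replicate 1 and to 7 without KO1 replicate 3. In KO2, the 13 calls fell to 7 without KO2 replicate 1 and to 8 without KO2 replicate 3, and rose to 20 without KO2+MK replicate 1. CKS2, KIF23, TACC3, PSRC1 and ECT2 kept their calls in both pools without each library in turn. The other 6 genes called in both pools lost the call in at least 1 of these fits in KO1, and all but CDC20 and LBR did so in KO2.

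PSRC1, which binds spindle microtubules, fell the most. It was read at 83, 81.8 and 81.5 CPM in KO1 and 54.8, 63.6 and 60 CPM with the drug, and at 81.6, 82.6 and 86.1 CPM in KO2 and 65, 57.1 and 50.9 CPM with the drug. No treated library reached an untreated one of its pool (0.737-fold, log2 fold change -0.44, SE 0.0441, adjusted p = 4.92e-06 in KO1, and 0.7-fold, log2 fold change -0.51, SE 0.0637, adjusted p = 1.2e-05 in KO2). KIF23 was at 103.7, 115.1 and 105.6 CPM in KO1+MK and 116.3, 111.4 and 100.4 CPM in KO2+MK (0.809-fold and 0.764-fold, adjusted p = 2.96e-05 and 1.55e-05). ECT2, which KIF23 helps bring to the midzone, was at 276.8, 302.6 and 295.7 CPM in KO1+MK and 340.9, 351.2 and 348.6 CPM in KO2+MK (0.809-fold and 0.805-fold, adjusted p = 1.64e-05 and 4.26e-06). TACC3 was at 142.6, 151.6 and 152.6 CPM and 157.6, 151.6 and 141.5 CPM (0.81-fold and 0.827-fold, adjusted p = 2.23e-05 and 5.66e-05).

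CDC20 was at 141.7, 167.7 and 165.8 CPM in KO1+MK and 166.4, 152.6 and 143.8 CPM in KO2+MK (0.807-fold and 0.787-fold, adjusted p = 0.00035 and 3.14e-05). PLK1 was at 149.8, 157 and 154.2 CPM and 157.7, 139.3 and 135.3 CPM (0.823-fold and 0.826-fold, adjusted p = 0.00011 and 0.000266). For both genes the treated libraries of a pool lay below all its untreated ones. Their KO1 calls were lost without KO1 replicate 1 (adjusted p = 0.00337 for CDC20 and 0.00162 for PLK1) or 3 (0.00395 and 0.00131), and the KO2 call of PLK1 without KO2 replicate 1 or 3 or KO2+MK replicate 2 or 3 (0.00244, 0.00188, 0.00394 and 0.0011).

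BUB1B was at 92.5, 93.3 and 88.6 CPM in KO1+MK and 90.6, 86.4 and 78.3 CPM in KO2+MK (adjusted p = 0.000149 and 0.00016). TPX2 was at 626.8, 676.2 and 657.8 CPM and 667.1, 625.5 and 610.1 CPM (adjusted p = 0.000757 and 0.000146), and its KO1 call was lost without any library other than KO1+MK replicate 1 (adjusted p up to 0.00592). LBR was at 186.5, 191.8 and 192 CPM in KO1 and 150.2, 165.5 and 162.1 CPM in KO1+MK, and at 195.3, 186.4 and 193.6 CPM in KO2 and 150.4, 150.4 and 151.3 CPM in KO2+MK (adjusted p = 0.000203 and 1.9e-06). In each of the 3 genes the treated libraries lay below the untreated ones of their pool. CDC25B, CDCA3 and KIF20A were called lower in KO1, not in KO2, and the test of the difference between the pools called none of them. CDC25B was at 157.8, 167.4 and 169.3 CPM in KO1+MK and 185.5, 176.3 and 172.4 CPM in KO2+MK. CDCA3 was at 48.4, 54.2 and 52.2 CPM and 58.4, 54.1 and 51.2 CPM. KIF20A was at 166.7, 177 and 175.3 CPM and 195.8, 179.4 and 185.9 CPM. All 3 lost the KO1 call without KO1 replicate 1 or 3, at an adjusted p of up to 0.00629, 0.00501 and 0.0058. With library totals KIF20A (0.00132) and TPX2 (0.00126) lost it too, and with all 18 libraries in 1 fit KIF20A did (0.00148). BIRC5 was called lower in KO2, at 170.7, 200.3 and 190.4 CPM in KO1+MK and 184.2, 174.5 and 170.7 CPM in KO2+MK, and lost the call without KO2 replicate 1 or 3 or KO2+MK replicate 2 or 3 (adjusted p up to 0.00593) and with all 18 libraries in 1 fit (0.00111). ANP32E was lower in KO2 as well (log2 fold change -0.23, and adjusted p = 0.00189 without KO2 replicate 1).

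Against this direction, CKS2 rose with MK2206. It was at 92.4, 95.8 and 99.7 CPM in KO1 and 114.5, 121 and 119.2 CPM in KO1+MK, and at 116.4, 111.4 and 123.5 CPM in KO2 and 143.4, 147.5 and 162.9 CPM in KO2+MK (1.25-fold and 1.31-fold, adjusted p = 1.28e-05 and 1.33e-05). CDC25C, a phosphatase that activates CDK1, was 1.25-fold and 1.2-fold higher (adjusted p = 0.000102 and 0.000397), and its calls were lost without KO1 replicate 1 (adjusted p = 0.00119) in KO1, and in KO2 without any untreated library (up to 0.00247), without KO2+MK replicate 3 (0.00113) and with upper-quartile scaling (0.00144). CKAP2 was higher in KO1 (log2 fold change 0.21, and adjusted p up to 0.00366 with 1 library left out). CKS2 had also been higher in myrAKT than in WT, a comparison that shares no library with those of the drug.

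Other central genes were not called with the drug. CDK1 was at 147.3, 150.7 and 146 CPM in KO1+MK and 153.8, 155.9 and 156.3 CPM in KO2+MK, with 95% intervals of the log2 fold change of -0.02 to 0.11 and -0.08 to 0.05. TUBB4B was at 514.5, 560.1 and 564.8 CPM and 586, 572.3 and 593.9 CPM (intervals -0.07 to 0.10 and 0.09 to 0.23). TOP2A was at 984.1, 1050 and 1018 CPM and 1150, 1128 and 1124 CPM (intervals -0.05 to 0.09 and -0.13 to 0.00). In KO1 the treated libraries of all 3 genes overlapped the untreated ones, while in KO2 those of TUBB4B lay above and those of CDK1 and TOP2A below them. MKI67 was at 1569, 1317 and 1299 CPM and 1428, 1397 and 1352 CPM (intervals -0.16 to 0.10 and -0.24 to -0.03). CCNB1 was at 319.4, 338.2 and 338.2 CPM and 335.4, 318 and 306.4 CPM (adjusted p = 0.0199 and 0.0111). AURKA was at 230, 255.8 and 243.4 CPM and 248, 238.9 and 226.8 CPM (adjusted p = 0.023 and 0.00117). For CCNB1 and AURKA the treated libraries lay below the untreated ones in both pools, by less than the threshold asks. Of the kinetochore genes, CENPF had the smallest p in KO1 and NDC80 in KO2. CENPF was at 553.6, 493.6 and 485.7 CPM and 560.7, 579.9 and 548.5 CPM (adjusted p = 0.138 and 0.0182). NDC80 was at 109.5, 116 and 115.2 CPM and 123.4, 115.5 and 113.1 CPM (adjusted p = 0.925 and 0.00533). HMMR, the leading gene of myrAKT, was at 34.8, 36.5 and 36.7 CPM and 31.7, 33.9 and 34.7 CPM, close to its level in untreated KO cells (intervals 0.05 to 0.22 and -0.14 to 0.08).

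**Figure D5:**
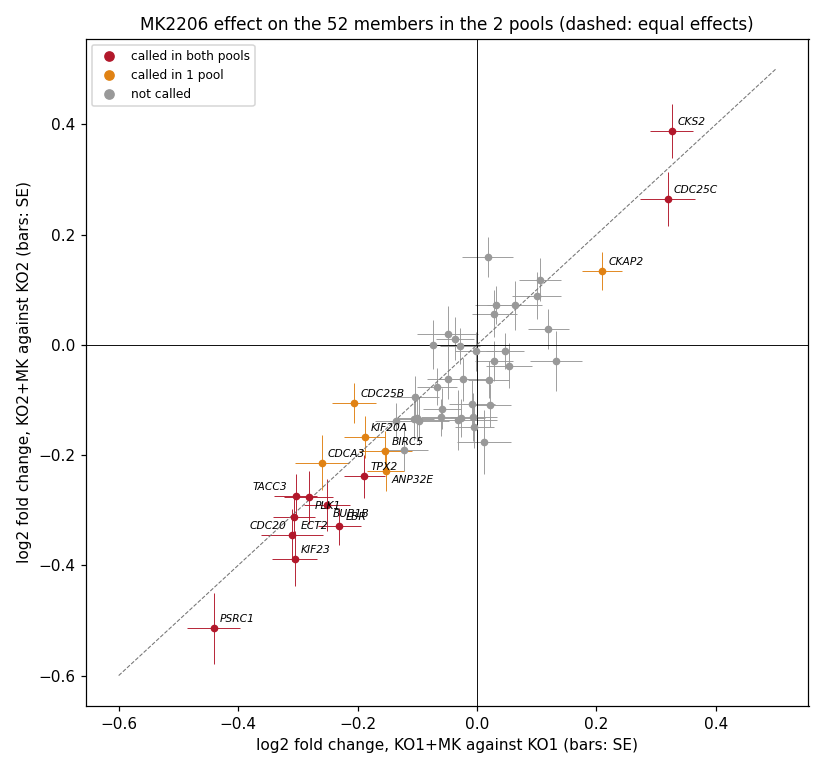
Log2 fold change of the 52 members with MK2206 in KO1 (x axis) and in KO2 (y axis), with SE bars and a dashed line of equal effects. The 11 members called in both pools lie in the lower left (PSRC1 lowest) and upper right (CKS2 and CDC25C), and the points follow the line with a Pearson r of 0.91.

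Whether the drug acted differently in the pools was tested as an interaction. With edgeR, 0 of the 52 members were called higher or lower, and DESeq2 called 0 as well. At an unadjusted p below 0.05 edgeR gave 6 members (11.5%, all genes 8.03%). At the adjusted threshold 0.0128% of all genes were called higher and 0% lower. The members with the smallest p were NDC80, TTK and G2E3, none of them called. NDC80 had a log2 difference of -0.14 (95% interval -0.24 to -0.05, adjusted p = 0.414). TTK was at 72.8, 76.3 and 72.4 CPM in KO1+MK and 72.4, 73.5 and 69.1 CPM in KO2+MK (log2 difference -0.13, 95% interval -0.23 to -0.03), and G2E3 at 38.4, 37.8 and 41.1 CPM and 40.9, 44.9 and 46.7 CPM (-0.19, -0.34 to -0.04).

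Treated knockout cells were last set beside WT. In KO1+MK, 18 members were higher than in WT (34.6%, all genes 16.7%) and 3 lower (5.77%, all genes 16.1%). With upper-quartile scaling these were 17 and 6, beside 2194 and 2957 of all 15587 genes. In KO2+MK, 27 were higher (51.9%, all genes 22.5%) and 3 lower (5.77%, all genes 22.4%). All comparisons with WT use the same 3 WT libraries, so values are given side by side. TUBB4B was at 1.57-fold and 1.68-fold over WT (adjusted p = 3.45e-07 and 6.58e-10), beside 1.56-fold and 1.52-fold in the untreated pools. CDCA8 was at 1.4-fold and 1.38-fold (adjusted p = 2.6e-06 and 4.97e-07), beside 1.51-fold and 1.53-fold untreated. KIF20A was at 1.26-fold and 1.37-fold (adjusted p = 0.000122 and 1.74e-06), beside 1.45-fold and 1.55-fold. CDC20 was not called in either treated pool (log2 fold change 0.06 and 0.02), beside 0.38 and 0.38 untreated. TACC3 was not called either (0.03 and 0.04, beside 0.34 and 0.33). PLK1 was called in KO1+MK (0.27, adjusted p = 0.000291, and up to 0.00191 with 1 library left out and 0.00276 without the low-count filter) and not in KO2+MK (0.17, adjusted p = 0.013). PSRC1 lay below WT in both (log2 fold change -0.28, adjusted p = 0.000571, and -0.33, adjusted p = 0.000568). ECT2 and G2E3 were lower in KO1+MK, and CKAP5 and CKAP2L in KO2+MK. Apart from ECT2, the calls of these lower members were lost in at least 1 fit without 1 library, at an adjusted p of up to 0.00396 for PSRC1, 0.00392 for G2E3, 0.00209 for CKAP5 and 0.00672 for CKAP2L.

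The members were next set beside other genes of mitosis that are not in the list. Of 126 such genes 125 were tested, and in KO against WT 76 were higher (60.8%, all genes 15.5%) and 3 lower (2.4%, all genes 16.6%). In myrAKT 38 were higher (30.4%, all genes 12.7%) and 11 lower (8.8%, all genes 17.3%). The drug counts lay nearer to those of all genes, with 8 higher (6.4%, all genes 10.9%) and 15 lower (12%, all genes 8.26%) in KO1 and 7 higher (5.6%, all genes 13.1%) and 18 lower (14.4%, all genes 8.78%) in KO2. FOXM1, the factor that drives G2/M transcription, was read at 184.5, 198.1 and 198 CPM in WT, 289.5, 273.5 and 290.6 CPM in KO1 and 287.9, 277.2 and 283.7 CPM in KO2 (1.45-fold, adjusted p = 4.97e-07) and at 242.6, 214.3 and 217.1 CPM in myrAKT, which was not called (0.00409). With MK2206 it was at 238.5, 260.6 and 257.3 and 281.1, 262.7 and 262.5 CPM and not called in either pool. MYBL2, its partner earlier in the cycle, was at 56.6, 62.7 and 62.1 CPM in WT, 77, 79.9 and 77.7 CPM in KO1, 67.7, 64.4 and 66.9 CPM in KO2 and 48.6, 46.6 and 44 CPM in myrAKT. It was not called in KO against WT (adjusted p = 0.0159), was higher in KO1 than in KO2 (1.17-fold, adjusted p = 6.3e-05) and was lower in myrAKT than in WT (log2 fold change -0.39, adjusted p = 2.46e-05).

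Outside the list, the largest called changes came from entry, kinetochore and transcriptional regulator genes. In KO, CDC25A, the phosphatase that acts from the start of S phase, was 2.22-fold higher (adjusted p = 1.2e-07) and ZWINT, a kinetochore scaffold, 1.84-fold (adjusted p = 6.63e-08). In myrAKT, CHEK1, the checkpoint kinase that holds CDC25 in check, was lower (log2 fold change -0.70, adjusted p = 1.03e-08), and CENPN, a centromere protein, 1.61-fold higher (adjusted p = 2.85e-08). With MK2206, LIN52, a subunit of the MuvB core, was 1.5-fold higher in KO1 and 1.42-fold in KO2 (adjusted p = 5.73e-07 and 9.17e-06). SKA1, a kinetochore coupler, was 1.32-fold higher in KO1 and 1.21-fold in KO2 (adjusted p = 6.32e-05 and 0.000639). E2F5, a repressive E2F, was lower in KO2 (log2 fold change -0.59, adjusted p = 0.00021). In KO1 its log2 fold change was -0.52, which was not called (adjusted p = 0.00344). By list, other kinetochore and checkpoint genes had 25 of 36 higher in KO and 0 lower, spindle and motor genes 17 of 27 and 0, condensin and cohesin genes 11 of 17 and 0, APC/C subunits and inhibitors 8 of 18 and 0, transcriptional regulators 10 of 15 and 1, and regulators of mitotic entry 5 of 12 tested and 2.

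The replication licensing and fork genes gave a comparison with the preceding phase of the cycle. In KO against WT 34 of these 36 were higher (94.4%, all genes 15.5%) and 0 lower (all genes 16.6%), with a median log2 fold change of 0.56 against 0.27 for the mitotic members. In myrAKT 23 were higher (63.9%, all genes 12.7%) and 1 lower (2.78%, all genes 17.3%), with a median of 0.32 against 0.20. With MK2206, 12 of the 36 were lower (33.3%, all genes 8.26%) and 0 higher (all genes 10.9%) in KO1, and 6 were lower (16.7%, all genes 8.78%) and 2 higher (5.56%, all genes 13.1%) in KO2. These are counts and medians of 2 lists from the same libraries, and no test of the difference between the lists was made.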

How the data were processed

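RNA-seq of 18 MDA-MB-231 libraries in 6 labelled groups was analysed. The values are raw read counts per Ensembl gene as deposited by the authors, who used FastQC, Trim Galore, HISAT2 on hg38 and featureCounts, neither normalized nor filtered. Tool versions, the annotation and the strand setting are not given in the sources used here. Exons of 3 members overlap another gene on the same strand and those of 18 a gene on the opposite strand, whose reads could be shared if strand was ignored. Symbols and positions came from GENCODE release 44 by Ensembl identifier.

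The 15587 genes that reached 1 CPM in 3 or more libraries were tested with edgeR 4.0.16 in R 4.3.3 (TMM, quasi-likelihood test, Benjamini-Hochberg over all of them, 2-sided). A gene was called at an adjusted p of at most 0.001, with no minimum fold. The 95% intervals are normal approximations from the SE, which was derived from the F statistic of the test. They are somewhat narrower than the quasi-likelihood test itself implies. CPM values use the TMM-scaled library sizes, and log2 CPM adds a prior count of 2. The study used DESeq2, run here (1.42.0) as an alternative. The others were scaling by DESeq2 size factors, by upper quartiles or by totals, dropping the low-count filter, requiring 10 counts throughout, fitting all groups jointly, a factor for the replicate number, an adjusted p of 0.05 with 1.5-fold, and each library left out in turn. edgeR was tested on simulated counts. Replicates differed by more than counting error (mean chi-square per gene 2.26 to 11.6). Summaries were made in Python 3.11.15 with pandas 2.3.3 and drawn with matplotlib 3.10.9.

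The members, gene lists and naming rule were chosen with earlier results of these data known. Values are given for CDK1, CCNB1, MKI67, TOP2A, PLK1 and AURKA, for the called member with the largest change in each role list and comparison with WT or MK2206 (where none was called, that with the smallest p), for members called in opposite directions, for the 3 smallest p of the interaction and of KO1 against KO2, and for FOXM1, MYBL2 and the 2 largest called changes among the other mitotic genes. Other genes named were chosen after their values were seen.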

Additional observations from a re-analysis of the deposited data

Results flagged for a closer look

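Of 53 sets of 6 libraries tested for a library that stands apart, 2 were found, and chance alone gives about 1 in 20. KIF2C was at 183.7 CPM in KO1 replicate 3, above the other 5 KO libraries, and PSRC1 was at 86.1 CPM in KO2 replicate 3, above the other 5.

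The effects of KO1 and KO2 against WT differed for 12 members by the direct edgeR test of KO1 against KO2 at an adjusted p of at most 0.001, each lower in KO1. The log2 difference was -0.37 for G2E3, -0.30 for CKS2, -0.26 for ECT2, -0.24 for TOP2A, -0.24 for KIF20B, -0.22 for CENPE, -0.21 for CCNB2, -0.21 for CKAP2, -0.20 for NDC80, -0.19 for NUSAP1, -0.16 for CCNA2 and -0.15 for ANLN. Each pool is 1 selected population made with 1 set of guides, so the guides and the pool cannot be told apart.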

How the results depend on the processing

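No called member changed sign under any alternative, and of the values of called members under these alternatives 3061 stayed past the threshold and 593 did not. Against WT, an adjusted p of 0.05 and 1.5-fold called 2 members for KO, 2 for KO1, 5 for KO2 and 2 for myrAKT. This setting called 0 with MK2206 in KO1, 0 in KO2 and 0 for KO1 against KO2. It called 3 for KO against myrAKT, 1 for KO1+MK and 4 for KO2+MK against WT. Over all 15587 genes it called 897 higher and 1841 lower for KO against WT. For KO1 these were 900 and 1812, for KO2 1186 and 2075, and for myrAKT 1185 and 1573. With MK2206 they were 901 and 458 in KO1 and 1048 and 613 in KO2. For KO1 against KO2 they were 418 and 316, and for KO against myrAKT 1371 and 1955. Against WT they were 1099 and 1673 for KO1+MK and 1739 and 2350 for KO2+MK. With all 18 libraries in 1 fit, 40 members were called for KO against WT, 35 for myrAKT and 5 for KO1 against KO2. Over all 15587 genes this fit called 3785 higher and 3758 lower for KO against WT. For myrAKT these were 2549 and 3055, and for KO1 against KO2 926 and 559. The median log2 fold change of KO1+MK against WT was 0.05 without the low-count filter. Leaving out each library in turn gave 20 to 26 calls for KO against WT, 27 to 34 for KO1, 35 to 40 for KO2, 16 to 26 for myrAKT, 5 to 18 for MK2206 in KO1, 7 to 20 in KO2, 0 to 0 for the interaction, 6 to 12 for KO1 against KO2, 10 to 18 for KO against myrAKT, 14 to 28 for KO1+MK and 24 to 31 for KO2+MK against WT. In these fits the smaller number of libraries and the library left out cannot be told apart, and the cause was not tested. Same-numbered replicates did not deviate together (correlations of -0.518 to 0.297), so the numbers do not pair the libraries. Differently numbered libraries had correlations of -0.468 to 0.591, the highest between myrAKT replicate 3 and KO1+MK replicate 1. The cause of these shared deviations was not tested. With the replicate block, 24 members were called for KO against WT, 30 for KO1, 43 for KO2 and 18 for myrAKT. It called 11 and 16 for MK2206 in KO1 and KO2, 0 for the interaction and 15 for KO1 against KO2. It called 12 for KO against myrAKT, 22 for KO1+MK and 29 for KO2+MK against WT. Over all 15587 genes the block called 1815 higher and 1910 lower for KO against WT. For KO1 these were 2948 and 3036, for KO2 3242 and 3481, and for myrAKT 1773 and 2452. With MK2206 they were 1581 and 1184 in KO1 and 2201 and 1516 in KO2. For KO1 against KO2 they were 1440 and 1215, and for KO against myrAKT 2262 and 1970.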
